A study of Mus musculus with 11 samples.

Results

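Liver genes of the urea cycle and of glutamine metabolism were followed in ribosome footprints of mice on different diets. The members are Cps1, Nags, Slc25a15, Otc, Ass1, Asl, Arg1, Glul, Gls2 and Glud1, found by their Ensembl gene identifiers, 10 of 22019 genes in the table. They were listed by their known roles, but with earlier results of these data known. A footprint is the piece of mRNA that a ribosome shields from RNase I. Monosome footprints of about 30 nt come from single ribosomes, and disome footprints of about 60 nt come from a ribosome packed against the one ahead of it. All samples were livers of male wild-type (WT) mice, and no genotype or drug separated the groups. The groups were disomes from the High Fat High Sugar (HFHS) diet with 2 libraries, monosomes from HFHS with 3, disomes from the chow diet with 3 and monosomes from chow with 3. Replicate 2 of the HFHS disomes was not analysed here. Ages, diet durations and the tie of a library to an animal are not stated in the labels, and the p-values below cover the spread between libraries only.

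The urea cycle turns ammonia, which is toxic, into urea, and the liver is the organ that runs it in full. Its first steps lie in the mitochondria of hepatocytes and its later steps in their cytosol. Hepatocytes near the portal vein carry most of the urea cycle and break glutamine down, while a narrow layer around the central vein makes glutamine from the ammonia that is left. Ribosomes that slow down on an mRNA can be run into by the ribosome behind, and the disome footprint records such packed pairs.

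Total counts ran from 235748 to 238837 in HFHS disomes, from 1196240 to 1612324 in HFHS monosomes, from 147212 to 279331 in chow disomes and from 795145 to 1248781 in chow monosomes. A count of 3 was worth 10.7 to 20.4 CPM (counts scaled to a common library size) in a disome library, and 1.86 to 3.77 CPM in a monosome library. The 10 genes took 2.38% ± 0.20 of all counts in HFHS disomes (SD, n = 2) and 1.56% ± 0.079 in HFHS monosomes (n = 3). They took 2.73% ± 0.52 in chow disomes and 1.78% ± 0.22 in chow monosomes (n = 3 each). All 10 passed the count filter of every comparison. The shallowest member was Nags, with 9 to 17 counts per disome library, and the deepest disome counts were those of Cps1, with 1274 to 3056. The column names give a sample barcode but no replicate number, so libraries are called by barcode, and values per library stand in alphabetical order of the barcode. The HFHS barcodes are CTAGA, then GATCA (monosomes alone), then GCATA, and the chow barcodes are AGCTA, then ATCGT, then CGTAA. The chow libraries AGCTA stood apart in both classes: over 2156 genes above 50 CPM, r between AGCTA and its fellow chow libraries was 0.82 and 0.83 in monosomes, where those 2 reached 0.98 with each other. In disomes r was 0.79 and 0.79, against 0.96. In chow disomes over monosomes, 7 of the 10 members were past the threshold with either AGCTA library left out, as with both kept. Over all comparisons, leaving out 1 AGCTA library moved the log2 values of the members by -0.13 to 0.11. Hepatocyte and other cell type markers were not analysed here, because the files do not pair identifiers with gene symbols.

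**Figure D1:**
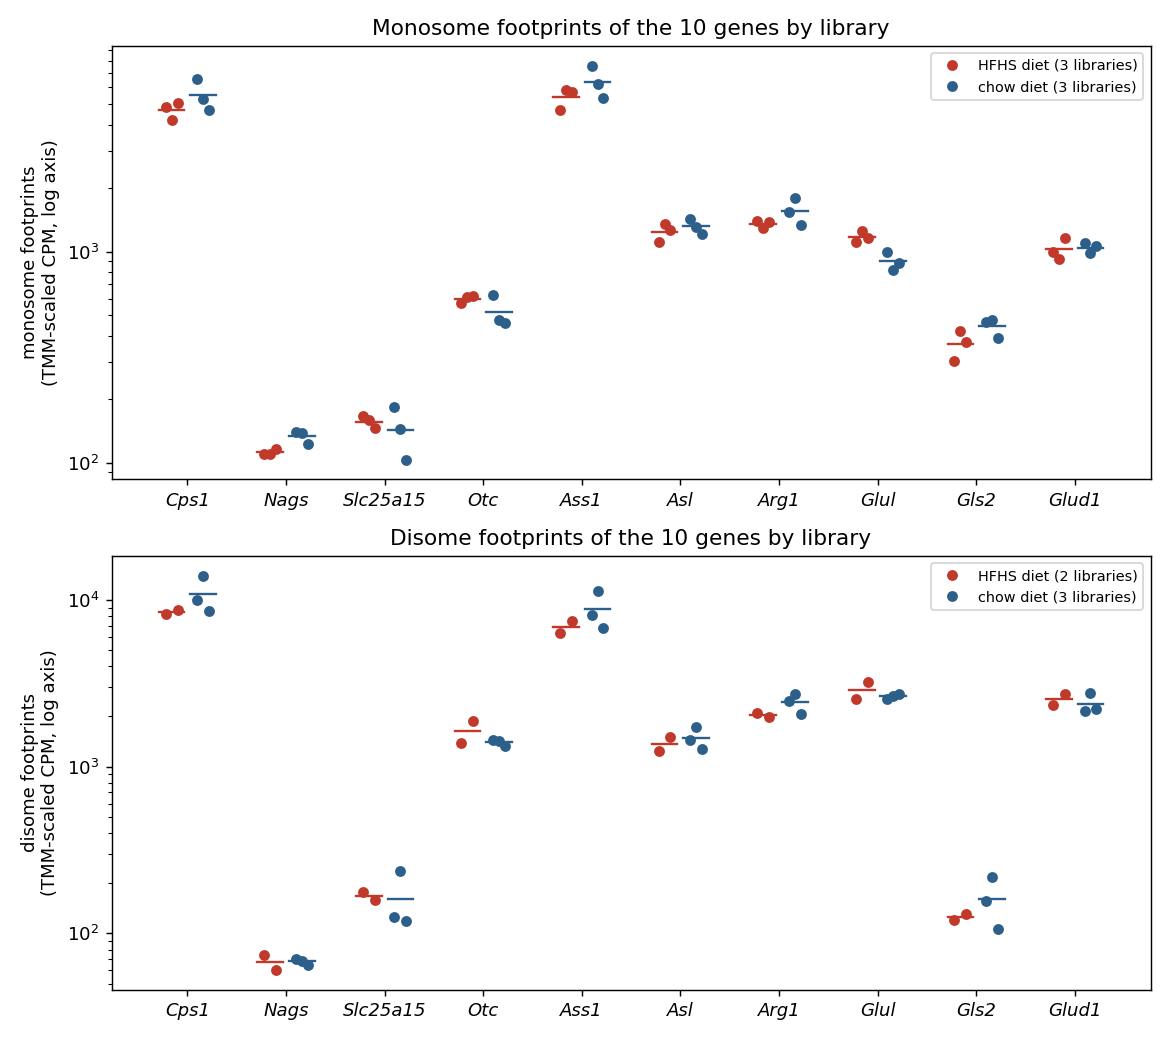
Footprint levels of the 10 genes in each library, as CPM scaled by TMM within each class on a log axis, monosomes above and disomes below. Each point is 1 library and each bar a group mean, with HFHS left of chow for every gene. Glul is the gene whose HFHS monosome libraries all lie above the chow ones, and Gls2 and Nags are the 2 genes whose disome levels lie well under their monosome levels. CPM are not divided by coding length, so heights are not to be compared between genes.

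The first question was which of these mRNAs had disome footprints above or below what their monosome footprints would give at the ratio of the average gene. Glul, Otc, Glud1, Cps1 and Arg1 were higher in disomes, and Gls2 and Nags were lower, in HFHS and in chow alike. Ass1, Asl and Slc25a15 did not pass the test in either diet. Gls2, whose enzyme breaks glutamine down, had the lowest ratio in both diets. Glul, whose enzyme makes glutamine, had the highest in chow alone. In HFHS Otc was highest, at a log2 ratio of 1.24, against 1.09 for Glul. In chow the confidence interval of Glul (1.06 to 1.59) overlapped that of Otc (0.92 to 1.49). A tie of the ratio to the direction of glutamine metabolism was not tested. In HFHS 5 of the 10 were called higher and 2 lower (edgeR, adjusted p below 0.05), where 25.1% of 7437 genes tested were called in either direction, 11.5% higher and 13.6% lower. In chow the same 5 were called higher and the same 2 lower, where 44.9% of 4713 genes were called, 21.6% higher and 23.3% lower. Under a minimum count of 50, which all 10 members passed here, 49.7% of 2786 genes were called in HFHS (23.9% higher and 25.8% lower). In chow 62.5% of 1436 were called (28.7% higher and 33.8% lower), and the members stayed at 5 higher and 2 lower. A gene can pass this filter through its monosome libraries alone, so the unchanged lower calls are not taken as support. Disome libraries held 9 to 17 counts of Nags, 16 to 52 of Slc25a15 and 20 to 48 of Gls2. Where disomes of the 2 diets were compared, only 7 members passed this filter. The share of members called is close to that of all genes passing this filter in chow, and nothing particular to the list is read from it. The median log2 ratio of the 10 members was 0.26 in HFHS and 0.32 in chow, against -0.07 and -0.01 for all genes tested. Disome and monosome libraries carry different prefixes in the column names, and no label says how they were grouped for preparation. Any difference in preparation between them cannot be told apart from one between footprint classes.

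Cps1 (ENSMUSG00000025991) makes carbamoyl phosphate from ammonia in the mitochondrial matrix and is the entry enzyme of the cycle. In HFHS it had 7089 and 7684 CPM in disomes, against 4881, 4274 and 5113 CPM in monosomes. In chow it had 9117, 13035 and 7993 CPM in disomes, against 5751, 7061 and 5137 CPM in monosomes. All disome libraries lay above all monosome libraries in both diets. Its log2 ratio came to 0.63 ± 0.12 (SE) in HFHS (adjusted p = 0.000166) and 0.75 ± 0.17 in chow (adjusted p = 0.00237). Without the count filter, which lowers the median ratio of all genes in chow by 0.17 on the log2 scale, the chow ratio of Cps1 was 0.57 (adjusted p = 0.0782).

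Nags (ENSMUSG00000048217) makes N-acetylglutamate, the activator that Cps1 needs, and it stood on the other side. Its disome level in HFHS was 64.4 and 53.3 CPM, against 112, 112 and 118 CPM in monosomes. In chow its disome level was 64.4, 64.0 and 60.1 CPM, against 150.2, 151 and 134 CPM in monosomes. The classes did not overlap in either diet, although the disome values rest on 29 counts in HFHS and 41 in chow. This gave a log2 ratio of -0.96 ± 0.27 in HFHS (adjusted p = 0.00943) and -1.21 ± 0.24 in chow (adjusted p = 7.39e-05). In HFHS the call was lost without the disome library GCATA, at a log2 ratio of -0.85 (adjusted p = 0.102).

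Slc25a15 (ENSMUSG00000031482) is the mitochondrial ornithine carrier, which brings ornithine in and lets citrulline out. Its log2 ratio was -0.12 in HFHS (95% interval -0.55 to 0.31) and -0.06 in chow (-0.58 to 0.47), and neither passed (adjusted p = 0.728 and 0.88). Otc (ENSMUSG00000031173), which joins ornithine and carbamoyl phosphate to citrulline in the matrix, was among the genes with the highest ratios. In HFHS it had 1203 and 1669 CPM in disomes, against 578, 621 and 625 CPM in monosomes. In chow it had 1324, 1335 and 1235 CPM in disomes, against 518, 667 and 502 CPM in monosomes. The lowest disome library was well above the highest monosome library in each diet. The log2 ratio was 1.24 ± 0.14 in HFHS (adjusted p = 1.39e-07) and 1.20 ± 0.14 in chow (adjusted p = 7.11e-09). That placed Otc above 91.6% of the genes tested in HFHS and above 91.4% in chow. In raw counts, 706 disome and 2438 monosome footprints lay on Otc in HFHS, where all genes together had 474585 and 4192432.

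In the cytosol, Ass1 (ENSMUSG00000076441) joins citrulline and aspartate to argininosuccinate, Asl (ENSMUSG00000025533) splits that into arginine and fumarate, and Arg1 (ENSMUSG00000019987) splits arginine into urea and ornithine. The log2 ratio of Ass1 was 0.14 in HFHS (95% interval -0.12 to 0.40, adjusted p = 0.444) and 0.23 in chow (-0.17 to 0.63, adjusted p = 0.331). With the barcode as a block, the chow value was 0.21 and passed (adjusted p = 0.0187). The log2 ratio of Asl was -0.06 in both diets, with intervals of -0.35 to 0.23 in HFHS and -0.33 to 0.22 in chow. The Ass1 intervals leave room for a rise of the size seen for Arg1. Those of Asl end below the Arg1 value of the same diet but leave room for smaller differences in either direction. A lack of difference is thus not shown for either gene.

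Arg1 was called higher in disomes, with a lower ratio than Cps1, Otc, Glud1 and Glul, although its 95% interval overlapped that of Cps1 in both diets. It had 1827 and 1759 CPM in HFHS disomes, against 1421, 1313 and 1398 CPM in HFHS monosomes. It had 2276, 2563 and 1921 CPM in chow disomes, against 1954, 1660 and 1470 CPM in chow monosomes. The classes did not overlap in HFHS, and overlapped in chow through the monosome library AGCTA and the disome library CGTAA. Its log2 ratio came to 0.38 ± 0.13 in HFHS (adjusted p = 0.0298) and 0.41 ± 0.13 in chow (adjusted p = 0.0121). The ratio was above 0 under all 12 alternatives in HFHS (0.24 to 0.43) and all 13 in chow (0.24 to 0.48), while the call was lost under 4 in each diet. In HFHS it was 0.36 without the monosome library GATCA (adjusted p = 0.0728), 0.33 without the disome library CTAGA (adjusted p = 0.178) and 0.39 with GCATA left out of the disomes (adjusted p = 0.0988). In chow it was 0.36 without the monosome library ATCGT (adjusted p = 0.0634), 0.28 without the monosome library CGTAA (adjusted p = 0.151) and 0.24 without the disome library ATCGT (adjusted p = 0.186). Without the count filter it was 0.24 in each diet (adjusted p = 0.281 in HFHS and 0.22 in chow).

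Glul (ENSMUSG00000026473), glutamine synthetase, joins ammonia to glutamate in the cytosol. It had 2217 and 2858 CPM in HFHS disomes, against 1129, 1273 and 1173 CPM in HFHS monosomes. It had 2340, 2495 and 2523 CPM in chow disomes, against 891, 1073 and 968 CPM in chow monosomes. Every disome library was well above every monosome library of the same diet. The log2 ratio was 1.09 ± 0.13 in HFHS (adjusted p = 3.16e-07) and 1.33 ± 0.13 in chow (adjusted p = 1.05e-10), above 89.1% and 93.6% of the genes tested.

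Gls2 (ENSMUSG00000044005), the liver form of glutaminase, releases ammonia from glutamine in the mitochondria and had the lowest ratio of the 10. It had 105 and 115 CPM in HFHS disomes, against 307, 428 and 379.6 CPM in HFHS monosomes. It had 143, 205 and 99.1 CPM in chow disomes, against 515, 499 and 429 CPM in chow monosomes. The highest disome library was under the lowest monosome library in each diet. This gave a log2 ratio of -1.76 ± 0.22 in HFHS (adjusted p = 3.68e-07) and -1.70 ± 0.19 in chow (adjusted p = 3.98e-09). Below it lay 7.62% of the genes tested in HFHS and 5.83% of those in chow. In counts summed over libraries, 54 disome and 1481 monosome footprints lay on Gls2 in HFHS, and 96 and 1347 in chow. The corresponding counts of Glul were 1248 and 4758 in HFHS and 1625 and 2786 in chow. These sums hold 2 disome and 3 monosome libraries in HFHS, and 3 of each in chow. All genes together had 474585 and 4192432 in HFHS and 671554 and 3069305 in chow, so the sums are not to be compared between diets.

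Glud1 (ENSMUSG00000021794), glutamate dehydrogenase, links glutamate to ammonia and 2-oxoglutarate in the matrix. It had 2036 and 2411 CPM in HFHS disomes, against 1013, 939 and 1174 CPM in HFHS monosomes. It had 1968, 2593 and 2059 CPM in chow disomes, against 1072, 1175 and 1164 CPM in chow monosomes. No libraries of the classes overlapped. The log2 ratio was 1.09 ± 0.14 in HFHS (adjusted p = 3.71e-07) and 0.96 ± 0.13 in chow (adjusted p = 2.09e-07).

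**Figure D2:**
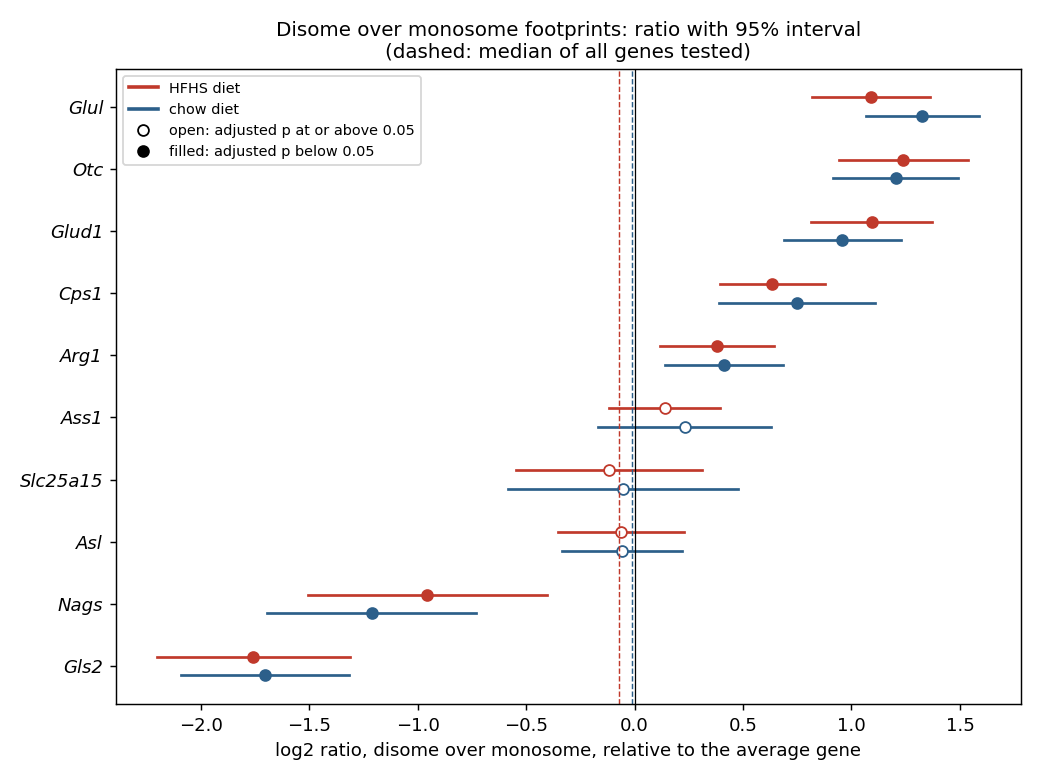
Log2 ratio of disome over monosome footprints for each gene, with its 95% interval, HFHS above chow, ordered by the chow value. Filled points have an adjusted p below 0.05, and dashed lines mark the median of all genes tested in each diet. The genes run from Glul at 1.33 to Gls2 at -1.70 in chow, and the HFHS interval of every gene overlaps its chow interval.

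From high to low, the order in HFHS was Otc, Glud1, Glul, Cps1, Arg1, Ass1, Asl, Slc25a15, Nags and Gls2. In chow it was Glul, Otc, Glud1, Cps1, Arg1, Ass1, Slc25a15, Asl, Nags and Gls2. The 95% intervals of neighbours overlapped throughout in HFHS, and in chow for all neighbours except Asl and Nags, so steps in this order are mostly within error while its ends are far apart. Genes called higher were found among mitochondrial and cytosolic proteins alike, while the genes called lower were all mitochondrial. With so few genes, a tie to the place of the protein in the cell was not tested. Of the 6 mitochondrial members, 3 were higher (Cps1, Otc and Glud1), 2 lower (Nags and Gls2) and 1 not called in each diet. Of the 4 cytosolic members, 2 were higher (Arg1 and Glul), 0 lower and 2 not called. The libraries of the 2 classes did not overlap for 7 of the 10 members in HFHS, against 58.3% of the genes tested, and for 6 in chow, against 53.7%.

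The second question was whether the HFHS diet changed the monosome level of these genes. None of the 10 passed the test (edgeR, smallest adjusted p = 0.0645, for Glul), where 4.65% of 6754 genes tested were called. At an unadjusted p below 0.05 there were 2 members, Glul and Cps1, where 16.9% of all genes tested were (1143 genes). DESeq2 called 1 member, Glul, among 217 genes (3.21%). The median log2 fold change of the 10 was -0.14, and -0.02 over all genes tested. The libraries hold no measure of mRNA, and in whole liver fewer cells of a type cannot be told apart from less RNA per cell.

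Glul had 1115, 1256 and 1155 CPM in HFHS monosomes, against 817, 999 and 883 CPM in chow monosomes. All 3 HFHS libraries lay above all 3 chow libraries. The log2 fold change was 0.39 ± 0.12 (95% interval 0.14 to 0.63), above 87.6% of the genes tested. The adjusted p fell below the threshold under 3 of 12 alternatives: 0.0486 with DESeq2, 0.0354 without the count filter and 0.0256 without the chow library ATCGT. It missed the threshold under all the others, from 0.0593 with RLE factors to 0.26 without the chow library AGCTA. Among these were 0.202 without the chow library CGTAA and 0.219 without the HFHS library GATCA. Nags was the other member whose libraries did not overlap, at 111, 111 and 117 CPM in HFHS against 138, 141 and 122 CPM in chow. Its log2 fold change was -0.24 ± 0.14 (adjusted p = 0.388). Such separation was seen in 21.6% of the genes tested.

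Among the other urea cycle genes, the monosome level of Cps1 averaged 4691 ± 424 CPM in HFHS and 5510 ± 968 CPM in chow (SD, n = 3 each). That of Ass1 averaged 5399 ± 614 CPM in HFHS and 6385 ± 1152 CPM in chow. Their log2 fold changes were -0.23 ± 0.11 (adjusted p = 0.277) and -0.24 ± 0.12 (adjusted p = 0.302). Both values depended on which chow library was left out. Without ATCGT, where Cps1 had 6573 and Ass1 7606 CPM, they were -0.08 and -0.09. Without CGTAA they moved the other way, to -0.33 and -0.35, and neither was called. In monosomes ATCGT was the highest chow library for 8 of the 10 members, the exceptions being Arg1 and Gls2. Arg1 averaged 1358 ± 56.1 CPM in HFHS and 1559 ± 226 CPM in chow, a log2 fold change of -0.20 (95% interval -0.44 to 0.04). Asl averaged 1239 ± 121 CPM in HFHS and 1320 ± 108 CPM in chow, a log2 fold change of -0.09 (-0.33 to 0.15). Otc had a positive value, at 599.6 ± 25.1 CPM in HFHS and 518 ± 89.7 CPM in chow, a log2 fold change of 0.21 (-0.07 to 0.49). Slc25a15 averaged 157 ± 10.3 CPM in HFHS and 144 ± 39.9 CPM in chow, a log2 fold change of 0.12 (-0.22 to 0.46). In 4 of these 6 genes (Cps1, Ass1, Arg1 and Asl) the value was below 0, and none of the 6 passed.

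Of the glutamine and glutamate enzymes, Gls2 averaged 366 ± 59.8 CPM in HFHS monosomes and 443 ± 44.9 CPM in chow monosomes, a log2 fold change of -0.27 ± 0.14 (adjusted p = 0.339). Glud1 averaged 1028 ± 117 CPM in HFHS and 1046 ± 56.5 CPM in chow, a log2 fold change of -0.03 (-0.27 to 0.22). The values of Glul and Gls2 pointed in opposite directions, and neither was called.

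**Figure D3:**
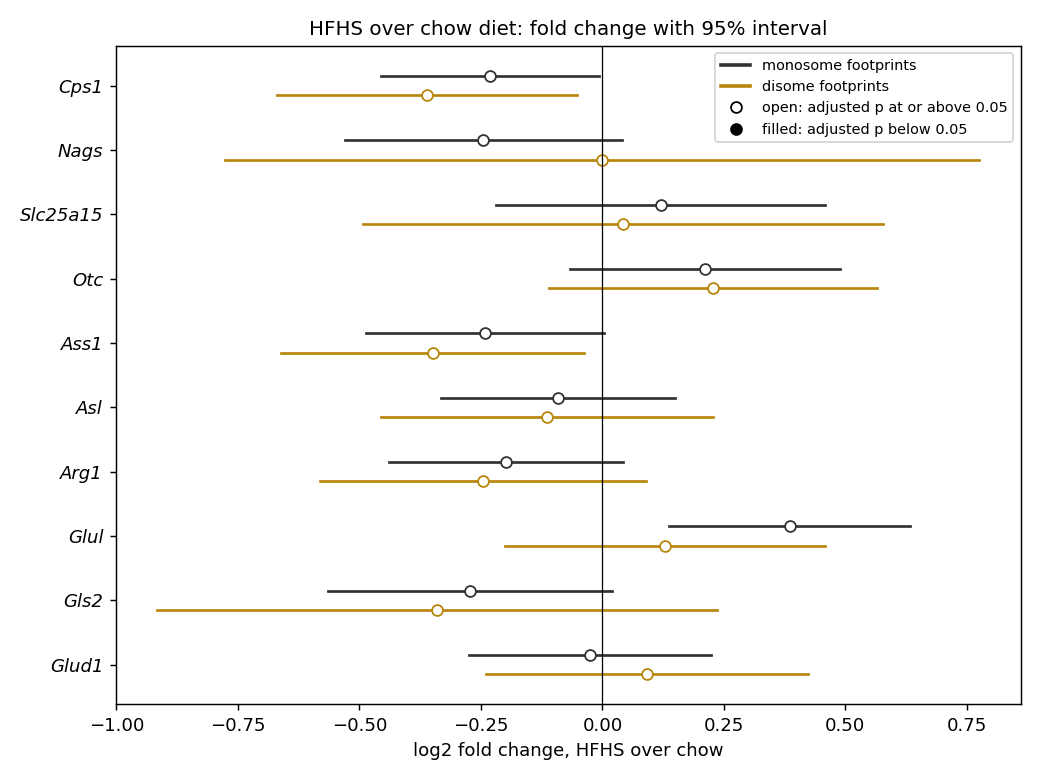
Log2 fold change of HFHS over chow for each gene, with its 95% interval, in monosome footprints and in disome footprints. All points are open, since no gene had an adjusted p below 0.05. The monosome values run from -0.27 for Gls2 to 0.39 for Glul, and the disome intervals are wider, most of all for Nags.

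The same question was put to the disome footprints. None of the 10 passed (edgeR, smallest adjusted p = 0.258, for Cps1), where 2.96% of 2804 genes tested were called. At an unadjusted p below 0.05 there were 2 members, Cps1 and Ass1, where 13.4% of all genes tested were (375 genes). DESeq2 called 0 of the 9 members it tested, with 0 at an unadjusted p below 0.05, and 26 of all 2804 genes (0.927%). The diets overlapped for all 10 genes, where 28.2% of the genes tested did not overlap. The median log2 fold change of the 10 was -0.06, and -0.03 over all genes tested.

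Cps1 had 8180 and 8694 CPM in HFHS disomes, against 9950, 13933 and 8606 CPM in chow disomes. Ass1 had 6290 and 7478 CPM in HFHS disomes, against 8107, 11385 and 6812 CPM in chow disomes. In both genes the chow library ATCGT was far above the rest, and the other libraries of the 2 diets lay close together. The log2 fold change was -0.36 ± 0.16 for Cps1 (95% interval -0.67 to -0.05) and -0.35 ± 0.16 for Ass1 (-0.66 to -0.04, adjusted p = 0.283). Without ATCGT the values were -0.14 and -0.12, and without CGTAA they were -0.51 and -0.51, with neither gene called. In disomes ATCGT was the highest chow library for 7 of the 10 members, all but Nags, Otc and Glul.

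Slc25a15 and Gls2 also varied widely between chow disome libraries, with ATCGT highest in both. Slc25a15 had 176 and 158 CPM in HFHS, against 125, 237 and 118 CPM in chow. Gls2 had 121 and 129.9 CPM in HFHS, against 156, 219 and 107 CPM in chow. The log2 fold change of Slc25a15 was 0.04 (95% interval -0.49 to 0.58) and that of Gls2 was -0.34 (-0.92 to 0.24). Without ATCGT, Gls2 came to -0.00096, and without CGTAA to -0.62, so its value depended on which chow libraries were kept. Nags averaged 67.3 ± 9.88 CPM in HFHS (n = 2) and 67.8 ± 2.81 CPM in chow (n = 3), with an interval of -0.78 to 0.78 around a log2 fold change of -0.00064.

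Arg1 averaged 2049 ± 83.0 CPM in HFHS disomes (n = 2) and 2431 ± 339 CPM in chow disomes (n = 3), a log2 fold change of -0.25 (95% interval -0.58 to 0.09). Asl averaged 1371 ± 193 CPM in HFHS and 1485 ± 232 CPM in chow, a log2 fold change of -0.11 (-0.46 to 0.23). Otc averaged 1638 ± 354 CPM in HFHS and 1401 ± 62.1 CPM in chow, a log2 fold change of 0.23 (-0.11 to 0.57). These 3 genes had the same sign as in monosomes, as did every other member except Glud1, and none passed in either class. For Nags, at -0.00064 in disomes, the sign means little: it held in only 3 of 9 alternatives. That of Slc25a15 held in 7 of 10. Glul averaged 2896 ± 478 CPM in HFHS and 2646 ± 83.3 CPM in chow, a log2 fold change of 0.13 (-0.20 to 0.46). Glud1 averaged 2538 ± 268 CPM in HFHS and 2379 ± 342 CPM in chow, a log2 fold change of 0.09 (-0.24 to 0.42). The HFHS disome library GCATA was the higher of its pair for Otc, Glul and Glud1, and without it their values were -0.0076, -0.04 and -0.01.

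The third question was whether the disome footprints of a gene answered the diet differently from its monosome footprints. This is the test of whether packed ribosomes became more or less common on these mRNAs with HFHS, beyond the monosome level and relative to the average gene. A change common to all genes is removed by the normalization and could not be seen. None of the 10 genes passed (edgeR, adjusted p = 1.00 for each), and none had an unadjusted p below 0.05 with edgeR or DESeq2. Among all genes tested, 0% of 7236 were called, with 358 at an unadjusted p below 0.05 with edgeR and 196 with DESeq2. The difference of diet effects, disomes minus monosomes, had a median of 0.02 over the 10 members and 0.01 over all genes tested.

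Nags had the highest value, 0.33 ± 0.36, with a 95% interval of -0.39 to 1.04. Glud1 followed at 0.20 ± 0.20 (-0.19 to 0.60), Otc at 0.10 ± 0.22 (-0.33 to 0.54) and Asl at 0.06 ± 0.20 (-0.35 to 0.47). Arg1 was at 0.04 ± 0.19 (-0.35 to 0.42). Glul had the lowest value, -0.17 ± 0.19 (-0.55 to 0.21). Cps1 was at -0.05 ± 0.27 (-0.64 to 0.55), Ass1 at -0.03 ± 0.33 (-0.80 to 0.74), Slc25a15 at -0.00037 ± 0.34 (-0.68 to 0.68) and Gls2 at 0.0016 ± 0.37 (-0.73 to 0.73). All 10 intervals include 0, and a p that misses the threshold does not show that the classes answered alike. For Ass1, Slc25a15 and Gls2 the intervals still allow a change of more than 1.5-fold in either direction.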

How the data were processed

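The authors deposited raw counts of footprints on coding sequences for 22019 genes in 11 libraries, whole numbers that were not normalized, and 8319 genes were 0 in all of them. Per the labels' protocols, 200 mg of liver was digested with RNase I, 10 µg of RNA was size-selected, and adaptors carried a barcode and an 8 nt molecular identifier. Cutadapt 3.5 and Bowtie2 are named, without their settings, in the submitters' processing notes. No label or header states the genome build, the strand setting or the use of the identifiers. Columns were placed in groups by their footprint class and diet. Gene names are those given with the 10 identifiers, since 0 of 49997 genes of the RefSeq table (GRCm38.p6) carry an Ensembl identifier. Lists of other pathway genes and cell type markers, given by symbol, were therefore not used, and coding sequences, proteins and coding lengths were not used here.

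Each of 5 comparisons was fitted on the whole table with edgeR 4.0.16 (R 4.3.3). Genes were kept by filterByExpr at a minimum count of 10 and scaled by TMM. They were tested two-sided by the quasi-likelihood F-test with robust estimation, with Benjamini-Hochberg adjustment over all genes tested and a threshold of 0.05. The SE is the log2 fold change divided by the square root of F. CPM are TMM-scaled within the fit, so levels of the same library differ slightly between comparisons. The difference of diet effects used all 11 libraries. Alternatives were DESeq2 1.42.0, RLE factors, other filters, no robust estimation, all libraries in 1 fit, a barcode block and leaving out each library. Deviations from the group mean correlated between same-barcode disome and monosome libraries in chow (r = 0.86, 0.69 and 0.70 in alphabetical order of the barcode, against at most -0.76, 0.56 and 0.56 with another barcode). In HFHS r was 0.085 for CTAGA and 0.29 for GCATA, against at most 0.14 and -0.085 with another barcode, and no label ties a barcode to an animal. Deviations from a group mean cancel out within the group, so the values are not independent of each other. Those of the 2 HFHS disome libraries mirror each other, so the HFHS values cannot decide the pairing. Scripts were tested on simulated data. The 10 genes, the lists and the rule to name all 10 were chosen with earlier results of these data known. Floors and counting limits cover counting error only.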

Additional observations from a re-analysis of the deposited data

How the results depend on the processing

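Depth is lowest in disomes, where Nags has 9 to 17 counts per library. With 2 HFHS disome libraries the loss of 1 leaves a single library, which is then assumed to vary like the other groups. In disomes over monosomes, Otc, Glud1, Glul and Gls2 kept their direction and their call under all 12 alternatives in HFHS and all 13 in chow, and Cps1 did so except in chow without the filter, while the exceptions for Nags and Arg1 stand in the report. No member was called for the difference of diet effects under any of 17 alternatives. With the barcode as replicate block, the difference of diet effects had 7 genes lower in the whole table, none of them a member. Ass1 then came to 0.064 ± 0.12 (SE), against an SE of 0.33 without the block. No filter lowered the median ratio of disomes over monosomes by 0.14 in HFHS and 0.17 in chow.

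Genes higher with diet in monosomes numbered 204, and 125 with a minimum count of 50. Genes lower numbered 110, and 56 with DESeq2. In disomes 51 were higher and 32 lower, against 16 and 10 with DESeq2, and 21 lower with no filter and with all 11 libraries in 1 fit. For disomes over monosomes, 1010 were lower in HFHS and 611 with DESeq2, and in chow 1017 were higher and 1097 lower, against 412 and 486 with a minimum count of 50. Leaving out 1 library at a time gave 85 to 203 genes higher and 57 to 117 lower in monosomes, 20 to 32 higher and 18 to 26 lower in disomes, and 425 to 825 higher and 555 to 861 lower for the ratio in HFHS. The causes were not tested.

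Some uncalled values changed sign. Nags in disomes was 0.0091 with RLE factors, 0.082 without the filter and 0.066 in 1 fit of all libraries. Gls2, for the difference of diet effects, was -0.00058 with DESeq2, -0.0071 with RLE factors, -0.038 without the filter and -0.024 with a minimum count of 50. With 1 library left out, the diet value in monosomes ran from -0.067 to 0.35 for Slc25a15 and from -0.11 to 0.048 for Glud1. In disomes it ran from -0.15 to 0.14 for Nags, -0.20 to 0.46 for Slc25a15, -0.0076 to 0.44 for Otc, -0.26 to 0.036 for Asl, -0.044 to 0.30 for Glul and -0.014 to 0.21 for Glud1. The difference of diet effects ran from -0.22 to 0.20 for Cps1, -0.25 to 0.44 for Slc25a15, -0.17 to 0.31 for Otc, -0.21 to 0.23 for Ass1, -0.13 to 0.21 for Asl, -0.092 to 0.15 for Arg1 and -0.28 to 0.34 for Gls2. The ratio in HFHS ran from -0.026 to 0.25 for Ass1 and -0.25 to 0.062 for Asl, and that in chow from -0.54 to 0.13 for Slc25a15, -0.076 to 0.36 for Ass1 and -0.26 to 0.0092 for Asl.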

Other observations

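RefSeq promoters (GRCm38.p6, 250 bases before to 50 after a gene's start) matched 6 of the 10 genes by symbol: Otc, Ass1, Nags, Slc25a15, Glul and Glud1. On either strand, TGACG, the half-site of the cAMP response element, was in the window of Nags and in 20.8% of all 32851 promoters. TTGCNNAA, the core bound by C/EBP factors, was in 0 of the 6 and in 10.8% of promoters. The direct repeat with a 1-base spacer that HNF4A binds was in 0 of the 6 and in 0.0396% of promoters. A match says only that these letters are in the window, and the footprints carry no measurement of promoters.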
